A study of Rattus norvegicus with 10 samples.

Results

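Integrins are cell surface receptors built from an alpha and a beta subunit, and 10 rat subunit genes were followed here through the first day of FGF2 treatment in lens explants: Itga1, Itga2, Itga3, Itga5, Itga6, Itga7, Itgav, Itgb1, Itgb4, and Itgb5. A probe set was taken when the annotation of the array gave a member's symbol alone. This gave 19 of the 31042 probe sets tested, for 9 of the 14217 genes that have a probe set with 1 symbol. Itga6 had 4 probe sets, Itga7, Itgav, and Itgb5 had 3 each, Itgb1 had 2, and Itga1, Itga3, Itga5, and Itgb4 had 1 each. No probe set carried the symbol Itga2 alone, so the subunit that replaces Itga1 in the other main collagen receptor was not analysed here.

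The explants are primary cultures of lens epithelium from 3-day-old rat pups, with several explants pooled in a dish, and no strain or sex is given. All cultures spent a night in 5 ng/mL FGF2. The treated cultures then received 100 ng/mL FGF2, the dose at which lens epithelial cells start fiber differentiation, and were taken at 2, 4, 12, and 24 hr, while the 0 hr cultures were taken at the low dose. Each of the 5 time points had 2 arrays from biological replicate experiments, 10 arrays in all, and their number limits the precision. Low-dose cultures of the later hours are not among the samples, and hence the effect of dose cannot be told apart from that of time in culture. The array names number 0 hr, then 12 and 24 hr, then 2 and 4 hr in separate blocks, and what the numbering stands for cannot be told apart from time. Values are log2 intensities, on which a difference of 1 is a doubling. Early stands for the mean of 2 and 4 hr and late for the mean of 12 and 24 hr. A call is an adjusted p under 0.05, where adjusted p is limma's after Benjamini-Hochberg correction across 31042 probe sets.

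Each alpha subunit pairs with 1 or a few beta subunits, and the pair sets the ligand. With Itgb1, Itga3, Itga6, and Itga7 bind laminins, Itga1 and Itga2 bind collagens, and Itga5 binds fibronectin. Itgav pairs with several beta subunits, among them Itgb5 in a receptor for vitronectin, and Itga6 also pairs with Itgb4 in the hemidesmosomes of stratified epithelia. Lens epithelial and fiber cells sit inside a capsule of laminin and type IV collagen, which they hold through integrins of the Itgb1 class. Inside the cell, talin and kindlin switch integrins on, and vinculin, zyxin, parvin, and other adaptors tie them to actin.

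Promoters are shown for members that represent the main time courses in these data: Itga3, which was highest at 4 and 12 hr, Itga5, which was high at 12 and 24 hr, and Itgav, which was highest at 0 hr. A promoter here is the stretch from 250 bases before to 50 bases after the gene start in RefSeq, build GRCr8, and 7 of the 10 members had one. The stretch of Itga3 is chr10:80518852-80519151 on the minus strand and lies inside the annotated gene, which reaches to 80522548. That of Itga5 is chr7:136381256-136381555 on the minus strand, and that of Itgav is chr3:89245132-89245431 on the plus strand. Matches to the searched letters are in capitals.
Itga3: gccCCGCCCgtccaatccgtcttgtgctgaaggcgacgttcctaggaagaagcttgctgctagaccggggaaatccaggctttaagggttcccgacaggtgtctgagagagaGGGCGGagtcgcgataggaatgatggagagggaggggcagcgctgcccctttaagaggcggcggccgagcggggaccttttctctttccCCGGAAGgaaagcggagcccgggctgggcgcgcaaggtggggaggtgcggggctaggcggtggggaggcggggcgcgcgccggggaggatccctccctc
Itga5: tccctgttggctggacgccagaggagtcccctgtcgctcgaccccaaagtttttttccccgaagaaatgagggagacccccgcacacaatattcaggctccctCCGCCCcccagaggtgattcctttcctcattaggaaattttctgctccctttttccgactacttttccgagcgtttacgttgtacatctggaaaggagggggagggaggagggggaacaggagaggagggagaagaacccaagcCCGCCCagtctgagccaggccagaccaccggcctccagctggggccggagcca
Itgav: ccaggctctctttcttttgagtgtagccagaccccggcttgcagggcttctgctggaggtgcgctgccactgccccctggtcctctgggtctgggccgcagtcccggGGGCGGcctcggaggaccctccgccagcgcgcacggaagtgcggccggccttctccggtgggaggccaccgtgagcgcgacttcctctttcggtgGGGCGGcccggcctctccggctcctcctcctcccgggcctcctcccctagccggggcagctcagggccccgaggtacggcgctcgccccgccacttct
The letters searched on both strands were TGACTCA (AP-1), CCGGAAG (Ets), and GGGCGG (Sp1), and none of the matches overlap. TGACTCA was in 4.63% of the 33469 rat promoters of this length and in none of the 7 member promoters. CCGGAAG was in 8.75% of all promoters and, among the members, in that of Itga3, where it begins 49 bases before the start. GGGCGG was in 33.1% of all promoters and in those of Itga2, Itga3, Itga5, Itgav, and Itgb1.

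Over the 19 member probe sets, calls were most frequent at 12 hr and in the late against early comparison. The members were chosen with earlier results of these data known, and some genes have several of these probe sets. At 2 hr against 0 hr, 3 of the 19 probe sets were called, 2 higher and 1 lower, beside 17.5% of all tested probe sets. At 4 hr there were 5, with 4 higher and 1 lower, beside 23.8% of all. At 12 hr there were 10, with 6 higher and 4 lower, beside 19.0% of all. At 24 hr there were 6, with 2 higher and 4 lower, beside 20.2% of all. The share at 2 and 4 hr was thus close to that of all probe sets, while 52.6% of the member probe sets were called at 12 hr. The median absolute log2 difference of the members at 12 hr was 0.46, against 0.16 for all probe sets, and at 24 hr it was 0.34, against 0.17. With sign, the medians of the members were −0.02, 0.08, 0.20, and 0.06 at 2, 4, 12, and 24 hr, so gains and losses were mixed. In all, 12 probe sets of 7 genes were called at 1 or more of these times, beside 40.8% of all probe sets, and Itgb1 and Itgb4 had no call against 0 hr. Leaving out replicate 1 or 2 of 0 hr reduced the 12 hr count to 6 or 5, and leaving out replicate 2 of 12 hr to 5, beside 9.60%, 9.27%, and 9.46% of all probe sets in the same fits. These are whole explants, so fewer cells that express a gene and less RNA per cell cannot be told apart.

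**Figure D1:**
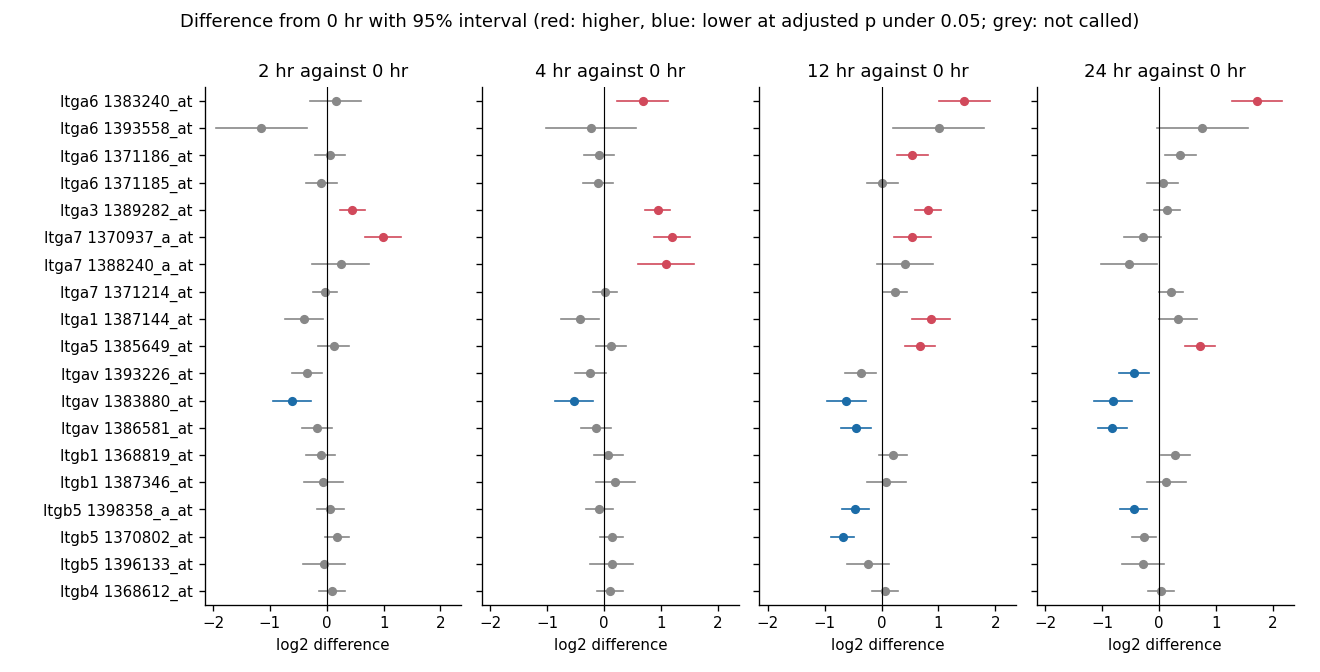
Log2 difference from 0 hr (x axis) of each of the 19 integrin probe sets (rows, grouped by gene) at 2, 4, 12, and 24 hr, with 95% intervals from the limma fit over 10 arrays. Itga3 and Itga7 are among the higher ones at 2 and 4 hr, and Itga6, Itga1, and Itga5 at 12 hr. Itgav and Itgb5 are the genes with probe sets called lower at 12 and 24 hr. Itga7 1370937_a_at and 1388240_a_at also lie below 0 at 24 hr (−0.29 and −0.53) and were not called.

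Itga6, the laminin receptor subunit of lens epithelium and fibers, had the largest rise of the members against 0 hr. On its brightest probe set, 1383240_at, log2 intensities were 10.01 and 10.004 at 0 hr, 10.38 and 9.94 at 2 hr, 10.96 and 10.40 at 4 hr, 11.34 and 11.58 at 12 hr, and 11.74 and 11.72 at 24 hr. The 24 hr arrays stood above those of 12 hr, and these above all earlier ones, while 0 and 2 hr overlapped. The level was 2.75-fold higher at 12 hr than at 0 hr (log2 difference 1.46, SE 0.19, adjusted p = 0.00126) and 3.30-fold higher at 24 hr (1.72, SE 0.19, adjusted p = 0.000572), and these calls were kept whichever array was left out. The 4 hr difference of 0.68 (adjusted p = 0.0354) was called in 3 of the 10 omissions. It was lost without replicate 1 of 4 hr (0.40, adjusted p = 0.17), without either array of 0, 12, or 24 hr (adjusted p up to 0.14), and in the fit of 0 and 4 hr alone (adjusted p = 0.0752). With the Actb 5′/3′ ratio of each array, a measure of cDNA length, as a covariate it was larger, at 1.10 (adjusted p = 0.003), and the 2 hr difference was 0.71 (adjusted p = 0.0577), against 0.15 (adjusted p = 0.655) without the covariate.

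The other Itga6 probe sets followed in part. Probe set 1393558_at had 6.83 and 6.60 at 0 hr, 5.94 and 5.20 at 2 hr, 6.99 and 5.97 at 4 hr, 7.67 and 7.77 at 12 hr, and 7.78 and 7.19 at 24 hr. It was 2.99-fold higher late than early (1.58, SE 0.25, adjusted p = 0.00111), with each late array above each early array. Its differences from 0 hr were not called, at −1.15 for 2 hr (adjusted p = 0.054) and 1.00 for 12 hr (adjusted p = 0.083). Both early replicate 2 arrays were lower here than their partners, and these arrays also had the lowest Actb 5′/3′ log2 ratios of the series, −2.13 at 2 hr and −2.08 at 4 hr, against −1.12 to −1.88 on the other arrays. A low ratio is a sign of shorter cDNA or of degraded RNA. The ratio also differed with time, at −1.12 and −1.21 at 0 hr and −1.68 and −2.13 at 2 hr. Its part therefore cannot be told apart from that of time. A fit with that ratio as a covariate was chosen after seeing the data. There the differences from 0 hr on 1393558_at were −0.01 at 2 hr (adjusted p = 0.984) and 0.62 at 4 hr (adjusted p = 0.0654). They were 1.304 at 12 hr (adjusted p = 0.000711) and 1.76 at 24 hr (adjusted p = 0.00146). The part of RNA quality in these differences was not tested. Probe set 1371186_at was called at 12 hr (0.54, adjusted p = 0.0121), a call that was lost without either 0 hr array or replicate 2 of 12 hr (adjusted p up to 0.098). It was dim, with a mean at percentile 30.1 of the tested probe sets. Probe set 1371185_at stayed between 4.42 and 4.82 on all arrays and was not called. Over the 10 arrays the first 3 probe sets correlated pairwise at r = 0.79 to 0.83, and 1371185_at with them at 0.41 to 0.43.

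Itga3, the other laminin receptor subunit of simple epithelia, rose and came back within the day. Log2 intensities were 9.62 and 9.45 at 0 hr, 10.05 and 9.92 at 2 hr, 10.45 and 10.50 at 4 hr, 10.35 and 10.34 at 12 hr, and 9.60 and 9.76 at 24 hr. The arrays of 0 and 24 hr overlapped, and the other times stood above them without overlap. The level was 1.92-fold higher at 4 hr than at 0 hr (0.94, SE 0.10, adjusted p = 0.000333) and 1.76-fold higher at 12 hr (0.81, SE 0.10, adjusted p = 0.000837), and both calls were kept in all 10 omissions. The 2 hr rise of 0.45 (adjusted p = 0.016) was lost without replicate 2 of 0 hr (adjusted p = 0.13) or replicate 1 of 2 hr (adjusted p = 0.07), with the Actb ratio as a covariate (adjusted p = 0.122), and in the fit of 0 and 2 hr alone (adjusted p = 0.0564). The 24 hr difference was 0.14 (95% interval −0.08 to 0.37, adjusted p = 0.378).

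The steps between neighbouring times gave the same course for Itga3. It was higher at 4 hr than at 2 hr (0.49, adjusted p = 0.0335), which made it the 1 member probe set called in that comparison, beside 3.73% of all probe sets (2.24% higher and 1.5% lower). That call was kept in 3 of 10 omissions and was lost without replicate 2 of 2 hr (0.43, adjusted p = 0.12) and without either array of 0, 4, or 12 hr (adjusted p up to 0.081). It was also lost with array quality weights (adjusted p = 0.158), with a replicate block (adjusted p = 0.0533), and in the fit of 2 and 4 hr alone (adjusted p = 0.266). In that last fit 0.0387% of all probe sets were called. It was lower at 24 hr than at 12 hr (−0.67, adjusted p = 0.00929), 1 of 4 member calls in a comparison in which 4.34% of all probe sets were called (2.22% higher and 2.12% lower). The call was lost without either 12 hr array or replicate 1 of 24 hr (adjusted p up to 0.088), at differences of −0.68 to −0.59.

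Itga7, best known as the laminin receptor subunit of muscle, followed an early course with a return by 24 hr. On 1370937_a_at, log2 intensities were 7.52 and 7.52 at 0 hr, 8.71 and 8.31 at 2 hr, 8.60 and 8.83 at 4 hr, 8.0 and 8.13 at 12 hr, and 7.29 and 7.17 at 24 hr. The arrays of 2 and 4 hr overlapped each other and stood above all others. The level was 1.99-fold higher at 2 hr than at 0 hr (0.99, SE 0.14, adjusted p = 0.00236) and 2.28-fold higher at 4 hr (1.19, SE 0.14, adjusted p = 0.000577), in all 10 omissions. At 12 hr the difference was 0.54 (adjusted p = 0.0273), which was lost without either array of 0 or 12 hr (adjusted p up to 0.16), and at 24 hr it was −0.29 (adjusted p = 0.204). From 12 hr, the 24 hr arrays were lower by −0.83 (adjusted p = 0.0150), a call that was lost without any 1 of these 4 arrays (adjusted p up to 0.14) and with the Actb ratio as a covariate (adjusted p = 0.0501).

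The second Itga7 probe set, 1388240_a_at, had 5.42 and 5.87 at 0 hr, 6.22 and 5.55 at 2 hr, 6.81 and 6.66 at 4 hr, 6.08 and 6.03 at 12 hr, and 5.23 and 5.00 at 24 hr. It was called at 4 hr (1.09, SE 0.22, adjusted p = 0.0071), except without replicate 1 of 0 hr (0.87, adjusted p = 0.062), and it was not called at 2 hr (0.24, 95% interval −0.25 to 0.74). Its step from 12 hr, −0.95 at 24 hr (adjusted p = 0.0484), was kept in 2 of 10 omissions, those of either 2 hr array, and lost with the covariate (−0.70, adjusted p = 0.163). The suffix _a_at marks probe sets that recognise several transcripts of their gene, and these probe sets correlated at r = 0.86 over the arrays. The remaining one, 1371214_at, stayed between 3.96 and 4.34, had no call against 0 hr, and ran the other way in the late against early comparison.

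Of 5 muscle and pericyte markers, 2 were called higher at 2 and 4 hr, as Itga7 was, namely Des and Acta2. Of all probe sets, dim ones included, 8.61% and 11.9% were called higher at these times. Des, the intermediate filament protein of muscle, was at 10.39 and 10.56 at 0 hr, 12.52 and 12.91 at 2 hr, 12.25 and 12.83 at 4 hr, 9.49 and 9.31 at 12 hr, and 8.76 and 9.0 at 24 hr. Acta2, smooth muscle actin, was also higher at 2 and 4 hr (0.77 and 0.88), and Myh11, Rgs5, and Myl1 were not called at any time against 0 hr. At 12 hr Des was lower than at 0 hr while Itga7 1370937_a_at was higher, so they ran opposite ways there. The summed intensity of the 5 genes, of which Des alone made up 59.4% to 94.0%, was 1650 to 1852 at 0 hr, 6346 to 8183 at 2 hr, 5386 to 7752 at 4 hr, 907 to 1035 at 12 hr, and 731 to 841 at 24 hr. Without Des it was 454 to 501 at 2 and 4 hr and 272 to 340 at the other times. These normalized intensities do not reach 0 on any array, and the part of muscle or pericyte RNA in the Itga7 result was not tested.

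**Figure D2:**
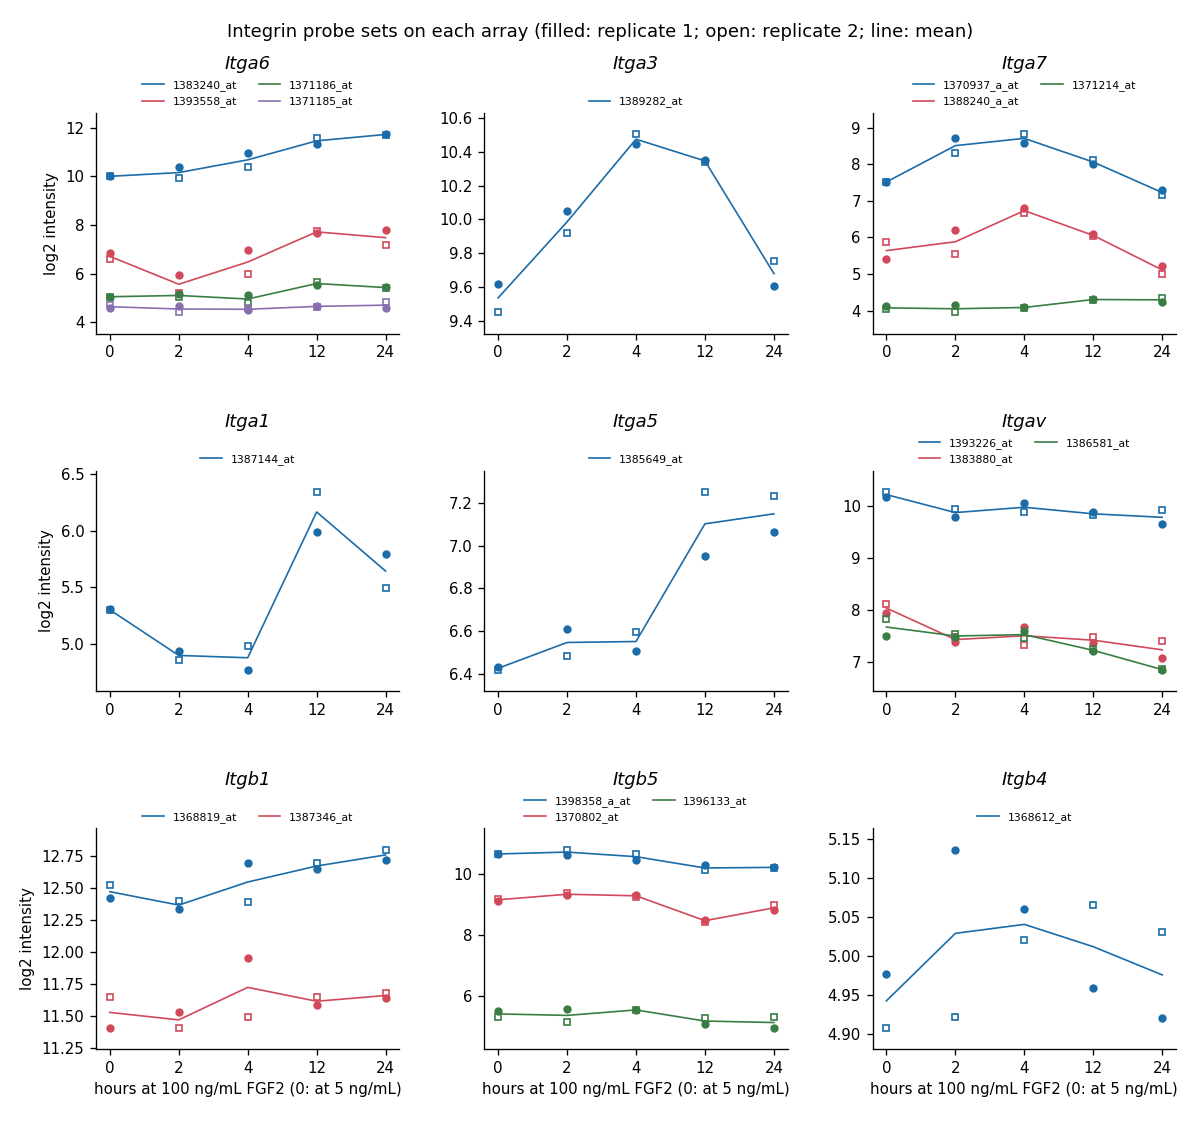
Log2 intensity (y axis, own scale in each panel) of the integrin probe sets on each array against hours of FGF2 (x axis, evenly spaced). Colours are probe sets, filled circles replicate 1, open squares replicate 2, and lines the mean of the 2 arrays. Itga6 1383240_at climbs to 11.74 and 11.72 at 24 hr, Itga3 peaks at 10.45 and 10.50 at 4 hr, and Itgb4 stays between 4.91 and 5.14.

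Itga1, the alpha subunit of a receptor for collagens including type IV, was highest at 12 hr. Log2 intensities were 5.31 and 5.30 at 0 hr, 4.94 and 4.86 at 2 hr, 4.77 and 4.99 at 4 hr, 5.99 and 6.34 at 12 hr, and 5.80 and 5.49 at 24 hr. The arrays of 2 and 4 hr overlapped and lay below those of 0 hr, and those of 12 hr lay above all others. The 12 hr level was 1.82-fold that of 0 hr (0.86, SE 0.15, adjusted p = 0.00404), in all 10 omissions. The differences of −0.40 at 2 hr (adjusted p = 0.0967), −0.42 at 4 hr (adjusted p = 0.069), and 0.34 at 24 hr (adjusted p = 0.147) did not pass. Late against early, Itga1 was 2.02-fold higher (1.02, SE 0.10, adjusted p = 0.000116). Its 1 probe set was dim, with a mean at percentile 32.4 of the tested probe sets.

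Itga5, the alpha subunit of the fibronectin receptor, rose late and stayed high. Log2 intensities were 6.43 and 6.42 at 0 hr, 6.61 and 6.48 at 2 hr, 6.51 and 6.60 at 4 hr, 6.95 and 7.25 at 12 hr, and 7.07 and 7.23 at 24 hr. Each late array stood above each earlier array, and 12 and 24 hr overlapped. The level was 1.60-fold higher at 12 hr than at 0 hr (0.68, SE 0.12, adjusted p = 0.00451) and 1.65-fold higher at 24 hr (0.72, SE 0.12, adjusted p = 0.00319), in all 10 omissions. At 2 and 4 hr the differences were 0.12 and 0.13, with 95% intervals of −0.15 to 0.39 and −0.14 to 0.39. Fn1, its ligand fibronectin, was not called, with a 12 hr difference of −1.07 (adjusted p = 0.0556).

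Itgav, the alpha subunit shared by several receptors for the RGD sequence of vitronectin and other ligands, was lower after the shift to 100 ng/mL. On 1383880_at, log2 intensities were 7.96 and 8.13 at 0 hr, 7.38 and 7.49 at 2 hr, 7.69 and 7.33 at 4 hr, 7.37 and 7.48 at 12 hr, and 7.08 and 7.40 at 24 hr. Both 0 hr arrays were above the 8 treated arrays, among which neighbouring times overlapped. This was the 1 member probe set called at all 4 times, at −0.61 (adjusted p = 0.0241), −0.53 (adjusted p = 0.0308), −0.62 (adjusted p = 0.0196), and −0.80 (adjusted p = 0.00583) for 2, 4, 12, and 24 hr. These calls rested on the 0 hr arrays: without replicate 2 of 0 hr all were lost, with adjusted p of 0.15, 0.18, 0.14, and 0.054, and without replicate 1 those of 2, 4, and 12 hr were lost (adjusted p of 0.074, 0.074, and 0.058). Those of 2 and 12 hr were also lost without either array of that time (adjusted p up to 0.12), and that of 4 hr without its replicate 2 (−0.36, adjusted p = 0.15) or either 12 hr array (adjusted p = 0.051). With the Actb ratio as a covariate the differences were −0.48, −0.43, −0.58, and −0.69 at 2, 4, 12, and 24 hr, with adjusted p of 0.258, 0.177, 0.0275, and 0.0621, so that of 12 hr kept its call. The 4 hr call was also lost in the fit of 0 and 4 hr alone (adjusted p = 0.0718).

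The decrease came later on 1386581_at, with differences of −0.17 and −0.15 at 2 and 4 hr that were not called. It had 7.51 and 7.84 at 0 hr, 7.48 and 7.53 at 2 hr, 7.60 and 7.46 at 4 hr, 7.21 and 7.25 at 12 hr, and 6.85 and 6.87 at 24 hr. The 24 hr arrays lay below those of 12 hr, and these below all earlier arrays. The 24 hr level was 1.76-fold lower than that of 0 hr (−0.82, SE 0.12, adjusted p = 0.0016), in all 10 omissions, and the 12 hr difference of −0.45 (adjusted p = 0.0266) was lost without replicate 2 of 0 hr (−0.29, adjusted p = 0.19) or either 12 hr array (adjusted p up to 0.14). The brightest Itgav probe set, 1393226_at, had 10.17 and 10.28 at 0 hr and 9.65 to 10.07 on the treated arrays. It was called at 24 hr (−0.44, adjusted p = 0.0313), and that call was lost without either 0 hr or 12 hr array or replicate 1 of 24 hr (adjusted p up to 0.18) and with the Actb ratio as a covariate (adjusted p = 0.149). Probe sets 1383880_at and 1393226_at correlated at r = 0.96, and 1386581_at with them at 0.75 and 0.74.

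Itgb5, which joins Itgav in a vitronectin receptor, was lower in the late phase. On 1370802_at, log2 intensities were 9.13 and 9.19 at 0 hr, 9.32 and 9.37 at 2 hr, 9.33 and 9.26 at 4 hr, 8.52 and 8.44 at 12 hr, and 8.82 and 8.98 at 24 hr. The 12 hr arrays were the lowest, the 24 hr arrays came next, and neither overlapped another time. The 12 hr level was 1.61-fold lower than that of 0 hr (−0.68, SE 0.09, adjusted p = 0.00122), in all 10 omissions. At 24 hr the difference from 0 hr was −0.26 (adjusted p = 0.0747). Against 12 hr, the 24 hr level was higher by 0.42 (adjusted p = 0.0384), a call that was kept in 4 of 10 omissions and lost without either array of 0, 12, or 24 hr (adjusted p up to 0.26) in the fit of 12 and 24 hr alone (adjusted p = 0.0598), and with the Actb ratio as a covariate (adjusted p = 0.0901).

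On 1398358_a_at, Itgb5 had 10.65 and 10.67 at 0 hr, 10.64 and 10.81 at 2 hr, 10.48 and 10.67 at 4 hr, 10.29 and 10.12 at 12 hr, and 10.25 and 10.20 at 24 hr. Each late array was below each earlier array. The differences from 0 hr were −0.46 at 12 hr (adjusted p = 0.0155) and −0.44 at 24 hr (adjusted p = 0.0182). Leaving out either 0 hr array ended both calls (adjusted p up to 0.10), as did leaving out replicate 2 of 12 hr for the 12 hr call (adjusted p = 0.12) and either 24 hr array for the 24 hr call (adjusted p up to 0.10). The dim probe set 1396133_at ranged from 4.97 to 5.59 and was not called.

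Itgb1, the common beta subunit of the laminin, collagen, and fibronectin receptors, was not called at any time against 0 hr. On 1368819_at, log2 intensities were 12.42 and 12.52 at 0 hr, 12.33 and 12.40 at 2 hr, 12.70 and 12.40 at 4 hr, 12.65 and 12.70 at 12 hr, and 12.72 and 12.80 at 24 hr. The largest difference from 0 hr was 0.29 at 24 hr (95% interval 0.03 to 0.54, adjusted p = 0.11), and the intervals at 2, 4, and 12 hr reached from −0.36 to 0.45. The second probe set, 1387346_at, had 11.41 and 11.65 at 0 hr, 11.53 and 11.41 at 2 hr, 11.96 and 11.49 at 4 hr, 11.59 and 11.65 at 12 hr, and 11.64 and 11.68 at 24 hr. Its 4 differences from 0 hr were between −0.06 and 0.20, with intervals inside −0.40 to 0.54.

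Itgb4, the beta subunit of hemidesmosomes, had no call in any comparison. Its 10 values lay between 4.91 and 5.14, a range of 0.23, and its differences from 0 hr were 0.09, 0.10, 0.07, and 0.03 at 2, 4, 12, and 24 hr, all with intervals inside −0.20 to 0.33. The probe set was dim on all arrays. No detection calls were used here, so a level near the floor of the array and a low level of the RNA cannot be told apart.

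Late against early, 13 of the 19 probe sets were called, 7 higher and 6 lower, beside 39.2% of all probe sets (19.9% higher and 19.3% lower). The higher ones belonged to Itga6 (3 probe sets), Itga1, Itga5, Itgb1, and the dim Itga7 probe set, and the lower ones to Itga7 (2), Itgb5 (2), Itgav, and Itga3. The median over the members was −0.04, against 0.03 for all probe sets, and the median absolute difference was 0.44, against 0.18. Among the members the largest gain was that of Itga6 1393558_at at 1.58, and the largest loss that of Itga7 1370937_a_at at −0.96. The smallest called differences, of Itga3, Itga7 1371214_at, and Itgb1, did not hold in every omission, nor with the Actb ratio as a covariate (adjusted p of 0.0643, 0.06, and 0.0838).

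**Figure D3:**
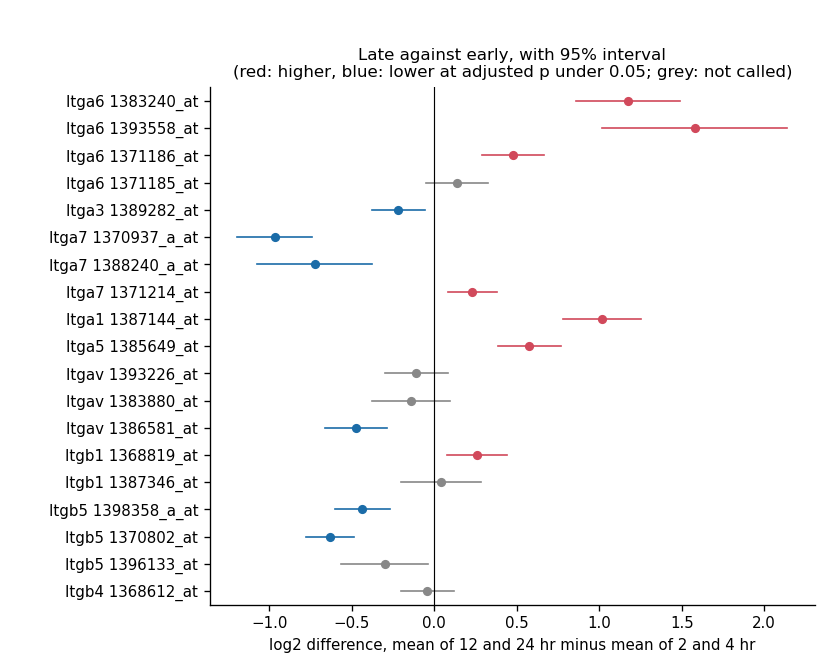
Log2 difference of the late mean (12 and 24 hr) over the early mean (2 and 4 hr), x axis, for the 19 integrin probe sets (rows), with 95% intervals. Itga6, Itga1, and Itga5 lie to the right of 0, and Itga7 (its 2 brighter probe sets) and Itgb5 to the left.

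Genes that work with integrins were read from 4 lists, each gene by its brightest probe set, as were the marker genes. The shares of all probe sets set beside them include dim probe sets. Without the dimmest 33.3% of probe sets, 26.3%, 34.6%, 28.8%, and 30.5% were called at 2, 4, 12, and 24 hr against 0 hr. With them it was 17.5%, 23.8%, 19.0%, and 20.2%. The part of brightness in the list counts was not tested. Of 29 integrin adaptors and focal adhesion kinases, 28 were measured. Against 0 hr, 11 were higher and 1 lower at 2 hr, 15 higher and 1 lower at 4 hr, 3 higher and 6 lower at 12 hr, and 4 higher and 5 lower at 24 hr, beside 8.61%, 11.9%, 8.94%, and 9.29% of all probe sets called higher and 8.88%, 11.9%, 10%, and 10.9% called lower. Vinculin (Vcl), which links talin to actin, was at 10.89 and 10.91 at 0 hr, 12.18 and 12.26 at 2 hr, 12.13 and 12.40 at 4 hr, 10.81 and 10.92 at 12 hr, and 10.62 and 11.02 at 24 hr. Zyx, a focal adhesion protein that responds to tension, was higher by 1.34 and 1.27 at 2 and 4 hr, and Vasp, which promotes actin growth, by 1.20 and 1.68. Parvb, a partner of integrin-linked kinase, took another course, with differences of 0.44, 0.77, 1.75, and 1.67 at 2, 4, 12, and 24 hr, all called. Among those lower at 12 hr were Tln2 (−1.18), a talin, Pxn (−0.85), paxillin, and Fermt2 (−0.64), a kindlin that was higher at 2 hr (0.50). The 2 and 4 hr arrays also had the higher 5S rRNA intensities, 183 to 209 against 112 to 154 on the other arrays, and the part of that in these counts was not tested.

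Of 24 matrix ligands, 21 were measured. At 2 hr 1 was higher and 1 lower, at 4 hr 2 and 3, at 12 hr 2 and 1, and at 24 hr 2 and 4. Of all probe sets, 8.61% to 11.9% were called higher and 8.88% to 11.9% lower at these times. Nid2, nidogen 2, which bridges laminin and type IV collagen, was higher at 4, 12, and 24 hr, with 6.55 and 6.47 at 0 hr, 7.32 and 7.01 at 2 hr, 7.47 and 7.86 at 4 hr, 8.55 and 9.33 at 12 hr, and 8.83 and 8.45 at 24 hr. Tnc, tenascin C, was higher by 2.68 at 12 hr. Lama1, a laminin chain that Itga6 and Itga7 receptors meet in basement membranes, was lower at 2 and 4 hr (−0.61 and −0.85) and not called at 12 and 24 hr (−0.20 and −0.07).

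All 12 tetraspanins and lateral partners were measured. At 2 hr 2 were higher and 4 lower, at 4 hr 3 and 4, at 12 hr 2 and 3, and at 24 hr 2 and 5. At these times 8.61% to 11.9% of all probe sets were called higher and 8.88% to 11.9% lower. Col17a1, the hemidesmosome collagen that works beside Itgb4, was at 8.87 and 8.74 at 0 hr, 9.36 and 8.78 at 2 hr, 10.61 and 10.59 at 4 hr, 11.48 and 11.57 at 12 hr, and 10.43 and 10.32 at 24 hr. Plec, plectin, which links integrins to intermediate filaments, was higher at 2 and 4 hr (1.26 and 1.41) and not called later (−0.08 and 0.06). Cav1, caveolin 1, was higher at all 4 times, by 1.51, 1.81, 1.29, and 1.06. Cd9 and Cd151, tetraspanins that bind laminin-type integrins, were lower at all 4 times, Cd9 by −0.35, −0.41, −0.69, and −1.01 and Cd151 by −0.30, −0.37, −0.39, and −0.33.

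Of 16 other integrin subunits, 13 were measured. At 2 and 4 hr 4 of them were called, beside 17.5% and 23.8% of all probe sets. At 12 and 24 hr none was called, beside 19.0% and 20.2%. Itga11, a collagen receptor subunit of mesenchyme, was higher by 1.11 and 0.73 at 2 and 4 hr, and Itgax by 0.52 and 0.32. The Itgax probe set was dim, at 4.56 to 5.16 on all arrays, where the floor of the array and a low RNA level cannot be told apart. Itgae fell by 0.42 and 0.61, and Itga2b by 0.76 and 0.46. Itgb3 and Itgb6, further partners of Itgav, were not called at any of the 4 times, and no probe set carried the symbol of Itga4, Itga10, or Itgb8 alone.

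**Figure D4:**
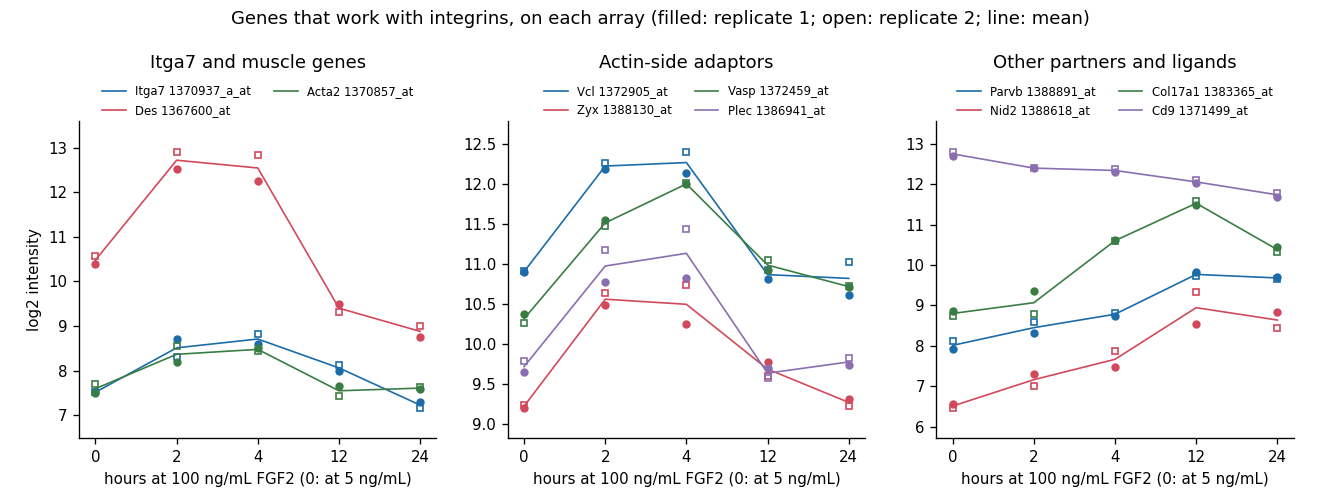
Log2 intensity (y axis, own scale in each panel) on each array against hours of FGF2 (x axis, evenly spaced), with filled circles for replicate 1, open squares for replicate 2, and lines for means. Des and Itga7 are high at 2 and 4 hr together with Vcl, Zyx, Vasp, and Plec, while Parvb and Nid2 are highest at 12 and 24 hr and Col17a1 is highest at 12 hr.

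Markers of the labelled tissue were bright. All 10 lens epithelium markers were measured. Their summed intensity was 87157 to 88080 at 0 hr, 84086.5 to 91342 at 2 hr, and 84293 to 85382 at 4 hr. It was 79572 to 80518 at 12 hr and 76000 to 77713 at 24 hr. Cryaa alone made up 25.6% to 32.1% of it, and without Cryaa the sums were 64513 to 65565 at 0 hr and 51617 to 52759 at 24 hr. Against 0 hr, 0 epithelium markers were called higher, and 3, 3, 4, and 6 lower at 2, 4, 12, and 24 hr, beside 8.88%, 11.9%, 10%, and 10.9% of all probe sets. For lens fiber, 10 of 12 markers were measured. Their sums were 31262 to 32022 at 0 hr, 22474 to 29376 at 2 hr, and 23558 to 28946 at 4 hr. They were 21442 to 25439 at 12 hr and 29040 to 34811 at 24 hr. Against 0 hr, 0 were called higher at any time, and 1, 4, 5, and 0 lower at 2, 4, 12, and 24 hr. Of all probe sets, 8.88%, 11.9%, 10%, and 10.9% were called lower. Endothelial markers, 6 of 7 measured, summed to 1424 to 1804 at 0 hr, 1666 to 1840 at 2 hr, 1285 to 1415 at 4 hr, 1107 to 1193 at 12 hr, and 950 to 1008 at 24 hr, but the sum followed 1 gene, Tek, which made up 24.8% to 78.0% of it. Without Tek the sums were 665 to 897 at 12 and 24 hr, against 405 to 692 at 2 and 4 hr and 618 to 751 at 0 hr. At 12 hr Tek (−1.63) and Vwf (−1.21) were lower than at 0 hr and Kdr was higher (1.21), and late against early Tek was lower (−1.72) and Kdr higher (1.05). Among the members, Itgb5 1370802_at and 1398358_a_at and Itgav 1386581_at were called lower late against early. Itgb5 1396133_at (−0.30, adjusted p = 0.0706) and Itgav 1383880_at (−0.14, adjusted p = 0.329) and 1393226_at (−0.11, adjusted p = 0.344) were not. The part of endothelial RNA in these results was not tested. Mesenchyme markers summed to 10440 to 10881 at 0 hr and 8128 to 11360 on the treated arrays, of which Pdgfra alone made up 94.9% to 97.2%. Without it the sums were 301 to 558. Late against early, 3 of the 6 mesenchyme markers were called lower (median −0.48), beside 19.3% of all probe sets. Leukocyte, pigment cell, and retina markers summed to 392 to 655, 172 to 193, and 67.1 to 76.8, and 1 of these, Gnat1 at 4 hr, was called at any time against 0 hr.

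The genes most like each member were found by Pearson's r of log2 intensity over the 10 arrays, which share their 5 time points and runs. The highest were Acsf2 for Itga1 (0.982), Il18 for Itga3 (0.985), Cbs for Itga5 (0.991), Mrpl17 for Itga6 (0.988), Mapkapk2 for Itga7 (0.979), Col4a6 for Itgav (0.930), Zbtb11 for Itgb1 (0.974), Ctss for Itgb4 (0.909), and Tshz2 for Itgb5 (0.996). For Itgav this is a chain of type IV collagen, and for the dim and flat Itgb4 the correlation rests on a range of 0.23.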

How the data were processed

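Rat lens explants were profiled on 10 Affymetrix arrays, 2 for each of 0, 2, 4, 12, and 24 hr of FGF2. The authors extracted the intensity values by the robust multichip average (RMA, version not given) and deposited them on a linear scale, 1 column per array with no pooling. The methods name another array type than the annotation, which matches the deposited probe sets.

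Analysis used log2 intensities as deposited, without the 57 array controls. A probe set was used for a gene only where the annotation gives 1 symbol (20826 of 31042, with 436 carrying several and 9780 none). In R 4.3.3, limma 3.58.1 (lmFit, eBayes) fitted 1 mean per time over the 10 arrays, with 5 residual degrees of freedom, prior degrees of freedom 3.69, and a prior SD of 0.116. p-values were adjusted by Benjamini-Hochberg over 31042 probe sets. When an array was left out, the lone array of that time was given the shared spread. The replicates are labelled biological, and whether pups were shared is not given.

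Named genes were all members, and from the gene lists those called or with the largest changes. The members and lists were chosen with earlier results of these data known. The fit was tested on simulated data. Alternatives were other priors, scalings, filters, arrays left out, a replicate block, gene means, and the methods' analysis of variance, and, chosen after seeing the data, array weights and a covariate for the Actb 5′/3′ ratio. The replicate numbers were checked for pairing, with a limit of 0.1 on the correlation of replicate differences. Those of 2 and 4 hr correlated at 0.33, above the limit, and those of all other pairs of times at −0.15 to −0.003. The numbers were not taken to pair the arrays of the series, so a link between the 2 and 4 hr arrays is not modelled in the main fit.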

Additional observations from a re-analysis of the deposited data

Results flagged for a closer look

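The late and early phases differed, by the test of the difference itself, for 13 integrin probe sets. Late minus early log2 differences were 1.58 (SE 0.25), 1.17 (SE 0.14), and 0.48 (SE 0.08) on Itga6 probe sets 1393558_at, 1383240_at, and 1371186_at, 1.02 (SE 0.10) for Itga1, 0.58 (SE 0.08) for Itga5, 0.26 (SE 0.08) for Itgb1 1368819_at, and 0.23 (SE 0.07) for Itga7 1371214_at. They were −0.96 (SE 0.10) and −0.73 (SE 0.15) on Itga7 probe sets 1370937_a_at and 1388240_a_at, −0.63 (SE 0.06) and −0.44 (SE 0.07) on Itgb5 probe sets 1370802_at and 1398358_a_at, −0.47 (SE 0.08) for Itgav 1386581_at, and −0.22 (SE 0.07) for Itga3. The call of Itga3 was kept in 4 of 10 omissions of an array, that of Itgb1 in 4, and that of Itga7 1371214_at in 6, with adjusted p up to 0.12, 0.089, and 0.075, and the other 10 were kept in all. The bright and dim Itga7 probe sets went opposite ways. The early and late arrays are numbered apart in the array names, which cannot be told apart from time.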

How the results depend on the processing

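No call of a member reversed its direction under any alternative. Against main counts of 3, 5, 10, and 6 called probe sets at 2, 4, 12, and 24 hr against 0 hr, 1 at 4 against 2 hr, 4 at 24 against 12 hr, and 13 late against early, leaving out 1 array gave 1 to 4, 2 to 5, 5 to 11, 3 to 8, 0 to 2, 0 to 4, and 10 to 13. Of 42 calls, 21 were kept in all 10 omissions, and 13 to 16 were lost without either array of 0 or 12 hr. The share of all probe sets called in the same setting is in parentheses, since it moved too. Unadjusted p gave 6 at 2 hr (30.6%), 12 at 24 hr (31.8%), and 4 at 4 against 2 hr (17.1%). The groups of the contrast alone gave 3 at 4 hr (18.0%) and 0 at 4 against 2 hr (0.0387%). Array weights gave 10 at 24 hr (28.6%) and 0 at 4 against 2 hr (1.44%). With the Actb ratio as a covariate 1 was called at 2 hr (7.92%) and 1 at 24 against 12 hr (3.40%). The mean of all probe sets of a gene gave, in genes, 2 at 4 hr, 6 at 12 hr, 2 at 24 against 12 hr, and 7 late against early. The methods' analysis of variance at unadjusted p gave 4, 3, 12, and 8 at 2, 4, 12, and 24 hr (20.1%, 22.9%, 29.1%, and 26.4%). At the same threshold limma gave 6, 6, 13, and 12 (30.6%, 35.2%, 30.5%, and 31.8%). For 4 against 2 hr and 24 against 12 hr the analysis of variance gave 1 and 5 (7.57% and 14.7%), and limma 4 and 6 (17.1% and 17.8%). After Benjamini-Hochberg the analysis of variance gave 0 in each comparison of 2 times (0 to 3 of all probe sets) and 10 late against early (22.6%). The cause of these shifts was not tested, other than fewer arrays or genes.

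Replicate differences of 2 and 4 hr correlated at 0.33, although the replicate numbers were not taken to pair the arrays of the series. The replicate block gave 0 at 4 against 2 hr (3.20%) and 2 at 24 against 12 hr (3.78%), and left the other counts within 1.5 times. It ended the 4 against 2 hr call of Itga3 (adjusted p = 0.0533), its late against early call (0.0532), and the 24 against 12 hr calls of Itga7 1388240_a_at (0.0604) and Itgb5 1370802_at (0.0608). With 2 arrays per time, small changes of Itgb1 and Itgb4 against 0 hr were not resolved, and dim probe sets may understate change.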
